A study of Mus musculus with 12 samples.

Results

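Desmoplakin (Dsp), plakoglobin (Jup), plakophilin 3 (Pkp3) and envoplakin (Evpl) are 4 genes of the desmosome and of the plakin family, taken by gene name from a table of 12208 genes counted in mouse 393P cells. All 4 passed the filter on low counts, which left 12027 genes. 393P is a lung cancer line that its labels call epithelial and non-metastatic, and all libraries come from that background with no drug or other agent added. The control line carried a GFP vector. The other lines carried wild-type Zeb1 (WT) or Zeb1 forms named deficient and mimetic, which are read here, from the series title, as mutants that lack or imitate an acetylation of the protein. Each line had 3 libraries numbered as biological replicates, although the series design text speaks of 2 replicates. Each form is represented by 1 line, and the labels do not say how Zeb1 was introduced or how separate the cultures were. A p-value here is set against variation among the libraries, which may be partly technical.

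A desmosome is a spot-like junction that ties the keratin filaments of neighbouring epithelial cells together. Desmosomal cadherins span the membrane, the armadillo proteins plakoglobin and the plakophilins bind their tails inside the cell, and desmoplakin links this plaque to keratin. Envoplakin is a plakin of the same wider family, known as a precursor of the cornified envelope of stratified epithelia and as the partner of periplakin. Zeb1, a DNA-binding repressor, is known for lowering E-cadherin and other epithelial genes in the epithelial-mesenchymal transition (EMT).

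Library totals ran from 24.4 to 39 M counts of 3' tags, so levels are not scaled by transcript length. Levels below are CPM, counts scaled to a library of 1 M by TMM-adjusted library sizes, as mean ± SD with n = 3. The vector line had 31.3 ± 2.8 CPM of Zeb1 RNA, against 244 ± 6.9 for WT, 228 ± 12 for mimetic and 484 ± 13 for deficient. Deficient was 1.98-fold above WT in Zeb1 RNA (adjusted p = 2.07e-12), and mimetic and WT were not separated (adjusted p = 0.14). Since the labels do not say how Zeb1 was introduced, 3' tags may not count all RNA of the introduced form. Mitochondrial genes took 0.933% ± 0.103 of counts for vector, against 0.707% ± 0.0129 for deficient, 0.496% ± 0.0122 for mimetic and 0.412% ± 0.015 for WT. The part of either measure in the results below was not tested. In bulk RNA, fewer cells of a kind and less RNA per cell cannot be told apart. Of 11 epithelial markers listed, 8 had counts, and their summed level was 8388 to 9725 CPM for vector, 7071 to 7156 for deficient, 5311 to 5461 for mimetic and 4140 to 4287 for WT. Krt8, Krt18 and Krt19, at 3329, 3147 and 1617 CPM in vector, made up most of that sum. Against vector, 6 of these markers fell and none (0) rose in WT, while 5 fell and 2 rose in both deficient and mimetic. Cldn3 rose from 16.8 CPM to 44.1 in deficient and 26.3 in mimetic, and Spint1 from 0.249 to 3.42 and 1.52. These are the 2 that rose, and they were named after their values were seen. Spint2, which had the smallest adjusted p of this list over the 4 lines, fell from 144 CPM in vector to 17 in WT, 82.4 in deficient and 42.3 in mimetic. Epcam, Cldn4 and Esrp1 are not analysed here. Squamous or basal markers (4 of 11) summed to 31 to 33.9 CPM for vector, 7.58 to 9 for WT, 29.3 to 29.7 for deficient and 16.4 to 16.7 for mimetic. Sprr1a made up most of the vector sum, at 27.5 CPM, and fell in every Zeb1 line. Of the other markers of that list, Krt14 and Tgm1 rose in deficient (9.93-fold and 11.7-fold) and in mimetic (7.81-fold and 5.03-fold) from 0.146 and 0.134 CPM in vector, so the list had 2 genes higher and 1 lower in both lines, with median log2 fold changes of 1.73 and 1.31. Fibroblast markers (3 of 8) summed to at most 3.47 CPM in any library. Endothelial markers (3 of 5) summed to 0.317 to 1.45 CPM for vector and 5.61 to 7.76 for deficient. Of these, 1 rose in deficient, Kdr, from 0.478 to 5.91 CPM, and the other 2 were not called there. Leukocyte markers (2 of 7, Cd14 and Cd68) summed to 51.7 to 65.5 CPM for vector and 21.5 to 28.3 over the other lines, and alveolar type II markers (2 of 7) to 46.3 to 74.3 over all. The defining genes Krt5, Trp63, Ptprc and Sftpc are not analysed here, and the part of these markers in the results was not tested.

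RefSeq start regions were at hand for 2 of the 4 members, Dsp and Jup, and are shown because these are the members with the most counts and with opposite responses in the deficient line. Each is the 250 bases before the RefSeq start in GRCm38.p6, 5′ to 3′ on the gene's strand. The RefSeq start of Jup lies slightly upstream of the GENCODE start given below. Capitals would mark the letters CAGGTG or CAGGTA on either strand, which are E-box letters of the kind that ZEB proteins bind.
Dsp, chr13:38151044-38151293, plus strand: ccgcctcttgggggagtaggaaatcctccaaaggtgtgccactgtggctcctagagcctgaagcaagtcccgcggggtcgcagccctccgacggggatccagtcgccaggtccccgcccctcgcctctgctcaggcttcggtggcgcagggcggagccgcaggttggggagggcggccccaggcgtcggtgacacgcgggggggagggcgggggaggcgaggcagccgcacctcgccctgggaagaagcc
Jup, chr11:100397791-100398040, minus strand: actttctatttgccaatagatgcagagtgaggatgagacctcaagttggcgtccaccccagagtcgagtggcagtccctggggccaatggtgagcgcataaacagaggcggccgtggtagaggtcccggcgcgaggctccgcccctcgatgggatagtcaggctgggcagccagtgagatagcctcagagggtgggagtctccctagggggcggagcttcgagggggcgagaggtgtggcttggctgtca
Neither stretch holds either set of letters, which says only that they are not in these windows. With the 50 bases after the start included, Dsp holds CAGGTG once, at bases 4 to 9 after the start, here in capitals within 30 bases.
Dsp, chr13:38151285-38151314, plus strand: gaagaagccgacCAGGTGtggcctgggcgc
Over all 32851 RefSeq windows of that full length, 20.2% hold CAGGTG on either strand and 12% hold CAGGTA. The stretches before the start have a GC content of 72.4% for Dsp and 62% for Jup, against a median of 52.4% over all windows. A match is a description of letters and not a site of binding.

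Desmoplakin had the largest fold difference between lines of the 4 members, 36.1-fold between deficient and WT. Dsp (ENSMUSG00000054889) lies on chromosome 13, 38151294 to 38198577, plus strand (GRCm38, GENCODE M21), where only the start region is overlapped by another annotated gene, Gm10129 on the opposite strand, which is not analysed here. Its 3 vector libraries stood at 110, 117 and 106 CPM, and its 3 WT libraries at 3.88, 4.27 and 3.77 CPM. The deficient libraries stood at 145, 148 and 141 CPM and the mimetic libraries at 59.5, 63.4 and 62.4. No library of any line overlapped with one of another line. The share of all genes with such a separation was not computed, here or for the members below. The WT values still rest on 106 to 151 counts per library, well above the smallest count of 1 in the table.

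Against vector, Dsp RNA was 27.7-fold lower in WT (log2 fold change -4.79, SE 0.07, adjusted p = 1.22e-21, edgeR's quasi-likelihood test over 12027 genes), and 33 tested genes had a larger fall. In mimetic it was 1.79-fold lower (log2 fold change -0.84, SE 0.05, adjusted p = 1.6e-11). In deficient it went the other way and was 1.3-fold higher (log2 fold change 0.38, SE 0.05, adjusted p = 1.48e-06). The order of the lines was therefore deficient, vector, mimetic and WT, with each neighbour in that order apart by the test. Relative to WT, Dsp was 15.4-fold higher in mimetic and 36.1-fold higher in deficient, and 22 and 11 tested genes had a larger rise in those comparisons. Mimetic was 2.34-fold below deficient (adjusted p = 4.7e-13).

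Plakoglobin, the catenin-like protein that binds both desmosomal cadherins and E-cadherin, had the highest control level in tags. Jup (ENSMUSG00000001552) lies on chromosome 11, 100368958 to 100397763, minus strand. Its vector libraries stood at 219, 216 and 226 CPM, and its WT libraries at 63.6, 61 and 63.5. The deficient libraries stood at 126, 127 and 153 CPM, replicate 3 being above the others, and the mimetic libraries at 82.1, 79.8 and 89. The 4 lines did not overlap, and all 3 Zeb1 lines lay below vector.

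Jup RNA was 3.52-fold lower than vector in WT (log2 fold change -1.81, SE 0.06, adjusted p = 1.22e-15), 2.64-fold lower in mimetic (-1.40, SE 0.06, adjusted p = 1.07e-13) and 1.63-fold lower in deficient (-0.70, SE 0.06, adjusted p = 4.5e-09). It is the member that was lower than vector in the deficient line while the others were higher there. Mimetic was 1.62-fold below deficient (adjusted p = 3.58e-08) and 1.33-fold above WT (adjusted p = 2.38e-05), so the order was vector, deficient, mimetic and WT with every neighbour apart by the test.

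Plakophilin 3, an armadillo protein of the plaque that binds desmoplakin, was measured at low counts. Pkp3 (ENSMUSG00000054065) lies on chromosome 7, 141078218 to 141090510, plus strand. Its libraries stood at 3.84, 3.04 and 4.07 CPM in vector and at 1.66, 1.19 and 1.5 in WT. They stood at 5.55, 4.72 and 4.65 CPM in deficient and at 2.11, 1.83 and 1.63 in mimetic. Counts per library ran from 42 to 184, and the WT and mimetic libraries overlapped while all other pairs of lines did not.

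Pkp3 RNA was 2.54-fold lower than vector in WT (log2 fold change -1.34, SE 0.20, adjusted p = 5.07e-06) and 1.97-fold lower in mimetic (-0.98, SE 0.19, adjusted p = 0.000194). In deficient it was 1.36-fold higher (0.44, SE 0.17, adjusted p = 0.0313), a call lost without deficient replicate 1 (adjusted p = 0.136) or without vector replicate 2 (adjusted p = 0.148). Deficient was 3.45-fold above WT (adjusted p = 1.6e-07) and mimetic 2.68-fold below deficient (adjusted p = 8.75e-06). In this comparison 78 tested genes had a larger fall than Pkp3. Mimetic and WT were not separated (log2 difference 0.36, 95% interval -0.09 to 0.82, adjusted p = 0.184).

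Envoplakin changed least against vector in WT. Evpl (ENSMUSG00000034282) lies on chromosome 11, 116220559 to 116238077, minus strand. Its libraries stood at 9.5, 8.18 and 9.74 CPM in vector, at 7.21, 6.96 and 5.52 in WT and at 7.46, 7.13 and 8.18 in mimetic. The deficient libraries, at 14, 13.2 and 13.9 CPM, lay above every other library. Mimetic overlapped with both vector and WT.

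Evpl RNA was 1.39-fold lower than vector in WT (log2 fold change -0.48, SE 0.12, adjusted p = 0.0013) and 1.5-fold higher in deficient (0.58, SE 0.11, adjusted p = 0.000121). Mimetic did not pass the test against vector (log2 difference -0.27, 95% interval -0.51 to -0.03, adjusted p = 0.0534), but passed when mimetic replicate 3 was left out (adjusted p = 0.0443), and likewise for WT replicate 3 (adjusted p = 0.0364) and vector replicate 2 (adjusted p = 0.0249). Mimetic and WT were not separated either (0.21, 95% interval -0.05 to 0.46, adjusted p = 0.173). Deficient was 2.09-fold above WT (adjusted p = 1.54e-07) and mimetic 1.81-fold below deficient (adjusted p = 9.01e-06).

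**Figure D1:**
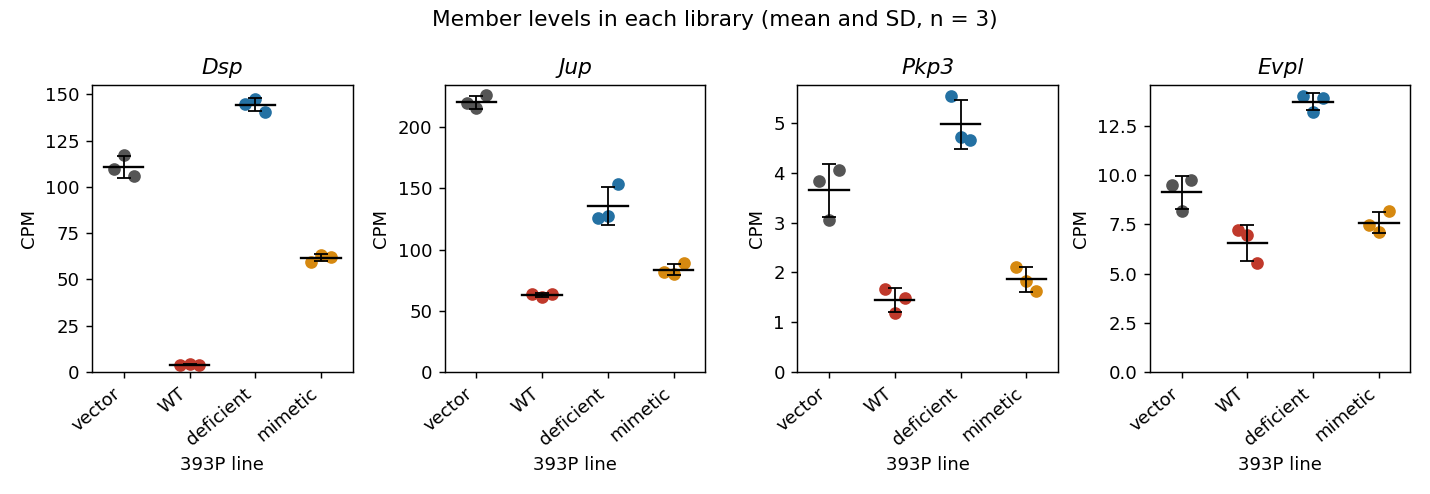
CPM of Dsp, Jup, Pkp3 and Evpl (y axis, from 0, a scale of its own per gene) in each 393P line (x axis); points are the 3 libraries, horizontal lines the mean and bars the SD. Deficient libraries lie highest for Dsp, Pkp3 and Evpl, vector libraries lie highest for Jup, and the Dsp libraries of WT lie between 3.77 and 4.27 CPM.

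By comparison, the counts read as follows. All 4 members fell in WT against vector, where 64.6% of all tested genes were called, 31% higher and 33.6% lower, with a median log2 fold change of -1.58 against -0.01 over all genes. In deficient against vector 3 rose, where 58.2% of genes were called, 28.4% higher, and 1 fell, where 29.8% were called lower (median 0.41 against 0.00). In mimetic against vector 3 fell and 1 was not called, where 59.5% of genes were called, 28.6% higher and 30.9% lower; of all calls there 48% were higher, and 59.1% when libraries were scaled by size only. All 4 fell in mimetic against deficient, where 27.4% of genes were called, 12.6% higher and 14.9% lower (median -1.04 against 0.00); 45.8% of calls there were higher, and 56.8% with scaling by library size only. Relative to WT, 2 rose and 2 were not called in mimetic, where 44.9% of genes were called, 23.1% higher and 21.8% lower, 51.5% of all calls being higher, or 63.9% with scaling by library size only. All 4 rose in deficient relative to WT, where 53.8% were called, 27.5% higher and 26.3% lower. The comparisons with vector share the same control libraries, as do those with WT.

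**Figure D2:**
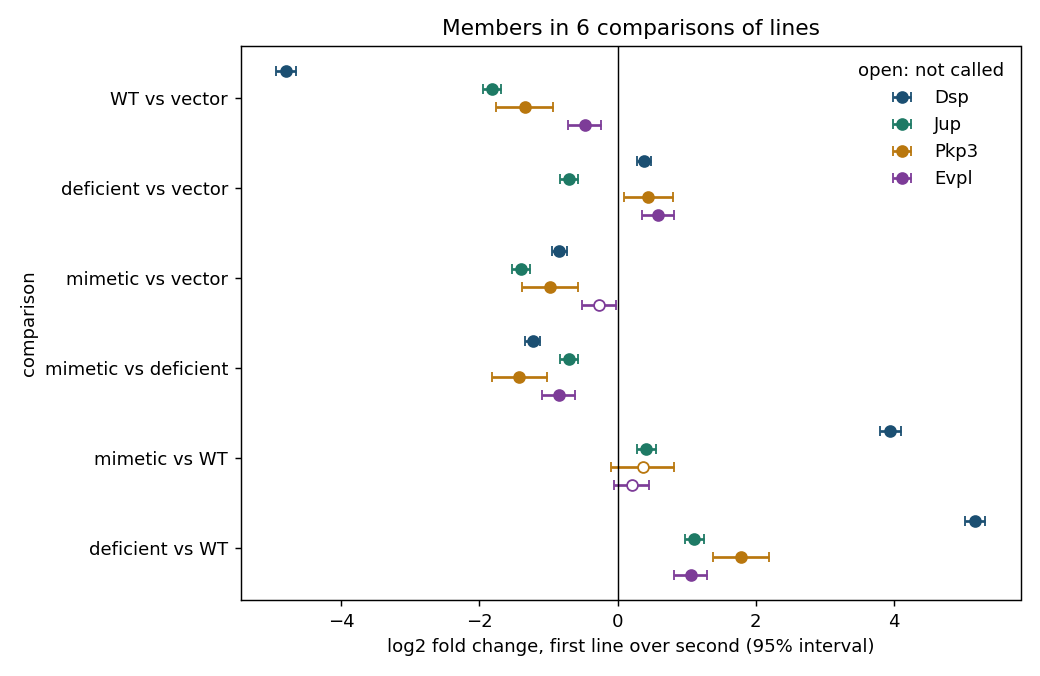
log2 fold change of the first over the second line (x axis, with 95% intervals) for the 4 members in 6 comparisons (y axis); open points were not called. In deficient against vector Jup is the member left of 0 at -0.70, and the Dsp intervals lie apart from those of the other members in all 3 comparisons that involve WT.

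Ratios of counts within a library do not depend on how libraries are scaled, and they show how unevenly the members moved. The Dsp count was 0.503 ± 0.0381 of the Jup count for vector, 1.07 ± 0.136 for deficient, 0.74 ± 0.0484 for mimetic and 0.0635 ± 0.00568 for WT. The ratio was 7.93-fold lower in WT than in vector and 2.13-fold higher in deficient, and no library of one line overlapped with another line. An exact two-sided permutation test gave p = 0.1 for each of the 6 comparisons, the smallest that 3 libraries against 3 allow (adjusted p = 0.171 over 12 ratio tests). The Dsp to Pkp3 ratio was 26 to 38.5 in vector, 26.1 to 31.3 in deficient and 28.1 to 38.3 in mimetic, 3 overlapping ranges, but 2.33 to 3.6 in WT. For the Pkp3 to Evpl ratio the ranges were 0.372 to 0.417 for vector, 0.334 to 0.396 for deficient, 0.199 to 0.283 for mimetic and 0.171 to 0.271 for WT.

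Jup was also set against E-cadherin (Cdh1), the adherens junction cadherin whose tail plakoglobin can bind. Cdh1 went from 670 ± 18 CPM (vector) to 445 ± 17 (deficient), 287 ± 21 (mimetic) and 198 ± 4.4 (WT). The Jup to Cdh1 count ratio was 0.329 ± 0.0148 for vector, 0.306 ± 0.046 for deficient, 0.292 ± 0.0212 for mimetic and 0.316 ± 0.0113 for WT. Vector and mimetic libraries did not overlap in that ratio, with a 1.13-fold difference (exact permutation p = 0.1, adjusted p = 0.171); the other 5 pairs of lines overlapped, with exact p from 0.2 to 0.8.

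**Figure D3:**
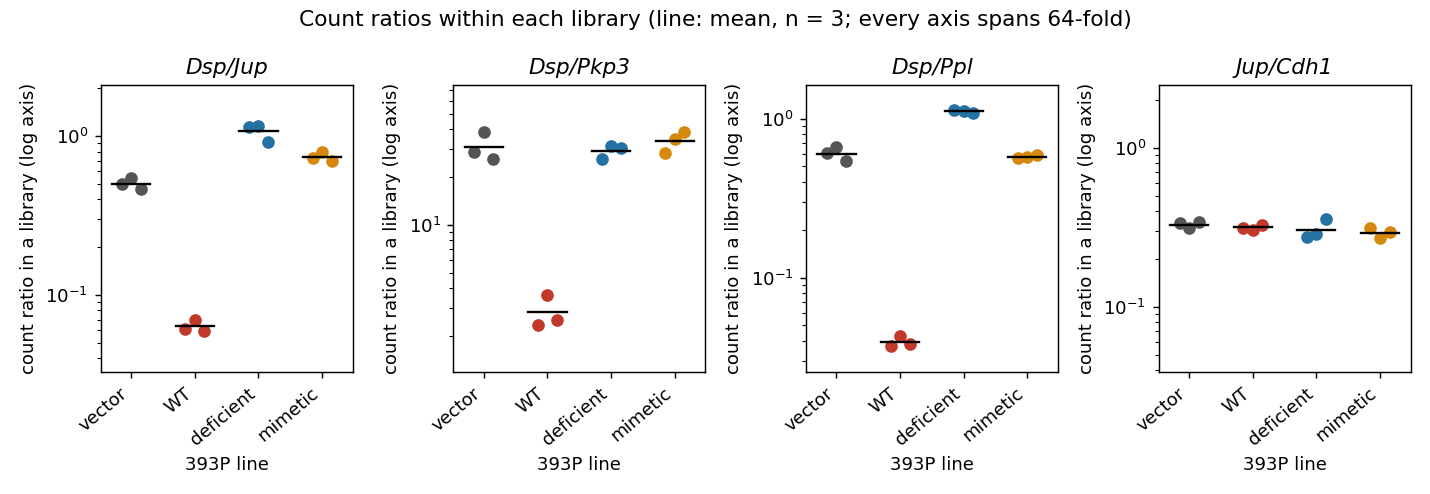
Ratio of the counts of 2 genes in the same library (y axis, log scale, each panel spanning the same fold range) by 393P line (x axis); points are libraries and lines the mean of 3. The WT libraries lie far below the others in the 3 Dsp panels, while the Jup to Cdh1 ratio stays between 0.27 and 0.358 in all 12 libraries.

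The genes whose pattern over the 12 libraries was nearest to each member were found by the root-mean-square difference of centred log2 CPM, among 8928 genes of at least 10 CPM in their highest line (8929 for Pkp3). For Dsp these were Klhl1 (0.44), the atypical protein kinase C gene Prkcz (0.51), which acts in cell polarity, and Epb41l4b (0.60). None (0) of these rose in deficient against vector: Klhl1 was lower there (log2 fold change -0.63, adjusted p = 7.76e-05), and Prkcz and Epb41l4b were not called (-0.09 each). For Jup they were Cyb561, Cdh1 and the syntaxin-binding gene Stxbp2, each at 0.12. For Pkp3 they were Acsbg1 (0.21), Cdkl2 (0.22) and ladinin 1 (Lad1, 0.23), a basement membrane protein that went from 568 ± 30 CPM in vector to 197 ± 4.5 in WT, 577 ± 20 in deficient and 235 ± 12 in mimetic. For Evpl they were Tnfaip3 (0.13), an inhibitor of NF-kB signalling, mesothelin (Msln, 0.15) and Stk40 (0.15). The distance of Dsp to its nearest gene was thus larger than that of the other members, but it is not scaled by the size of a gene's changes. The correlation with the nearest gene over the 12 libraries was 0.982 for Dsp, 0.989 for Jup, 0.967 for Pkp3 and 0.948 for Evpl. Both measures are a description over libraries that share 4 lines.

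Other components of the desmosome did not all follow the members. None (0) of the 9 listed desmosomal cadherins is analysed here, so the transmembrane part of the junction is not covered. Of 5 other plaque or associated genes, 2 fell and 1 rose in WT against vector, 1 fell and 2 rose in deficient, and 2 fell and 2 rose in mimetic, with median log2 fold changes of -0.16, -0.04 and 0.01. Perp, a membrane protein of desmosomes and a p53 target, fell in all 3 Zeb1 lines, from 126 ± 5.7 CPM in vector to 35.3 ± 2.6 in WT (3.57-fold), 97.3 ± 2.2 in deficient (1.3-fold) and 64.7 ± 3.7 in mimetic (1.95-fold).

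The plakophilins differed from each other. Plakophilin 1 (Pkp1), which is known from stratified epithelia, stood at 1.82 ± 0.38 CPM in vector and 1.47 ± 0.43 in WT, and rose to 10.5 ± 1.9 in deficient (5.8-fold, adjusted p = 3.91e-10) and 6.6 ± 0.63 in mimetic (3.64-fold, adjusted p = 5.97e-08). Plakophilin 2 (Pkp2), the broadly expressed form, was 59.1 ± 2.7 CPM in vector and 40.9 ± 3.9 in mimetic, 1.44-fold lower (adjusted p = 1.3e-06), with 52.8 ± 1.2 in WT (adjusted p = 0.0394) and 53.1 ± 3.8 in deficient (adjusted p = 0.0538). Pkp4 stayed between 192 and 198 CPM in the line means and was not called in any of the 6 comparisons. Pkp4 was chosen after its values were seen. In mimetic Pkp1 was thus higher than in vector while Pkp3 was lower. Corneodesmosin (Cdsn), a desmosome protein of the epidermal surface, rose in every Zeb1 line, from 1.68 ± 0.42 CPM to 3.31 ± 0.22 in WT, 6.74 ± 1.2 in deficient and 7.39 ± 0.72 in mimetic.

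Among the other plakins, 4 of 6 listed were tested, and none (0) rose against vector in any Zeb1 line; 2 fell in WT, 3 in deficient and 3 in mimetic. Periplakin (Ppl), the partner of envoplakin, fell in all 3 Zeb1 lines, from 185 ± 8.8 CPM in vector to 101 ± 3.6 in WT (1.82-fold), 130 ± 1.4 in deficient (1.42-fold) and 107 ± 2.6 in mimetic (1.73-fold). In deficient Ppl and Evpl therefore moved in opposite directions against vector. Dystonin (Dst) was also lower in all of them, at 853 ± 150 CPM in vector against 536 to 583 in the line means of the Zeb1 lines. Plectin (Plec), the broadly expressed cytolinker, was not called in any comparison (adjusted p from 0.0632 to 0.947). Eppk1 and Kazn are not analysed here.

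Keratins are the filaments that desmoplakin anchors. Of 6 tested, 4 fell in each Zeb1 line against vector, and 1 rose in deficient and 2 in mimetic. The simple epithelial keratins Krt8 and Krt18 fell 2.1-fold and 1.7-fold in WT, 1.26-fold and 1.18-fold in deficient and 1.68-fold and 1.58-fold in mimetic. Krt19 fell 2.84-fold in WT, and Krt7 fell 14.7-fold, from 866 ± 52 to 58.8 ± 2.3 CPM. The basal keratin Krt14 stood at 0.146 ± 0.034 CPM in vector and rose to 1.48 ± 0.45 in deficient and 1.16 ± 0.19 in mimetic, all low levels.

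Hemidesmosomes, which tie the same keratin filaments to the basement membrane through integrin and laminin, had 6 of 7 listed genes tested. In WT against vector 4 fell and 1 rose, in deficient 3 fell and 2 rose, and in mimetic 4 fell and 1 rose. The integrin chain Itgb4 fell from 191 ± 3.5 CPM to 35.6 ± 2.5 in WT, 99.3 ± 3.9 in deficient and 60.3 ± 1.6 in mimetic. The laminin chain Lamb3 fell 5.93-fold in WT and 2.47-fold in mimetic and rose 1.21-fold in deficient, the same 3 directions as Dsp and Pkp3. The tetraspanin Cd151 rose in each Zeb1 line, by 1.54-fold to 1.84-fold.

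Adherens junction genes gave a further comparison. Of 11 tested, 7 fell and 3 rose in WT against vector, and 8 fell and 1 rose in both deficient and mimetic, with medians of -0.22, -0.25 and -0.30 on the log2 scale. Beta-catenin (Ctnnb1), the close relative of plakoglobin, was 668 ± 23 CPM in vector and 594 ± 0.49 in WT (log2 fold change -0.17, adjusted p = 0.000488), and was not called in deficient (0.03) or mimetic (-0.04). Ctnnb1 was chosen after its values were seen. Alpha-catenin (Ctnna1) fell in each Zeb1 line, by 0.72, 0.63 and 0.85 on the log2 scale in WT, deficient and mimetic. N-cadherin (Cdh2) went from 53.7 ± 2.9 CPM in vector to 75.7 ± 2 in WT, 38.1 ± 1.6 in deficient and 39.1 ± 2.7 in mimetic. Ctnnal1 went from 105 ± 3.5 CPM in vector to 128 ± 2 in WT, 69.1 ± 2.8 in deficient and 89.9 ± 0.68 in mimetic.

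**Figure D4:**
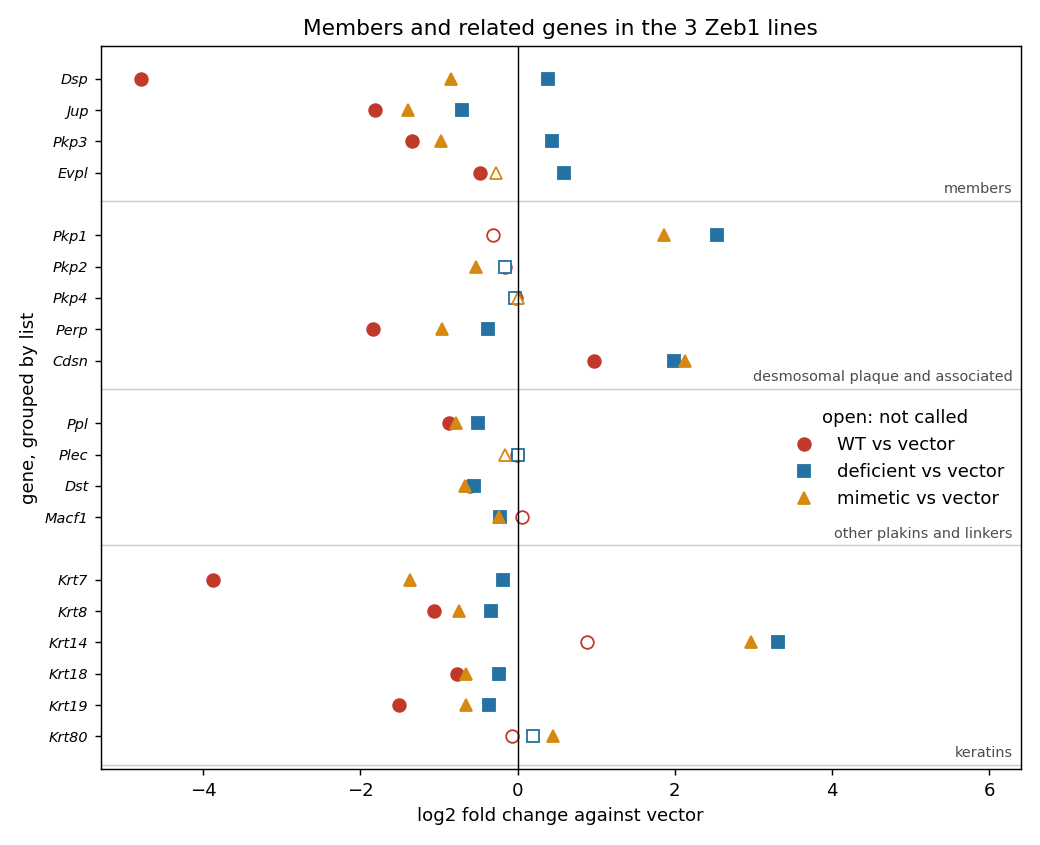
log2 fold change against vector (x axis) in WT, deficient and mimetic for the 4 members and for the tested genes of 3 related lists (y axis); open symbols were not called. Pkp1 and Krt14 lie to the right in deficient and mimetic, Pkp4 lies near 0 in each line, and Dsp in WT has the lowest value, -4.79.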

How the data were processed

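Per the labels' protocols, total RNA of 4 mouse 393P lines, 3 libraries each, went through the QuantSeq 3' forward kit and paired-end HiSeq sequencing. The authors deposited raw counts per gene with no normalisation. The submitters' processing notes name STAR and mm10; the counting tool, strand setting, gene annotation and versions are unstated in what was used here. The smallest count of any listed gene is 1, so genes at 0 in 1 or more libraries are not covered. Of 12208 gene IDs, 12195 were found in GENCODE M21 (GRCm38), which gave the coordinates, and 11959 had the same symbol.

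The deposited counts went into edgeR 4.0.16 (R 4.3.3): filterByExpr, TMM, and a quasi-likelihood fit over all 12 libraries with 1 coefficient per line, 6 contrasts, and Benjamini-Hochberg adjustment over 12027 genes. A gene was called, and is said to rise or fall, at an adjusted p under 0.05, two-sided. The SE is the log2 fold change divided by the square root of F. The fit was tested on simulated data. Nearest patterns used log2 CPM with a prior count of 2. Named genes are the 4 members and up to 4 genes per list with the smallest adjusted p over the 4 lines. The 3 nearest patterns per member are also named. Pkp4 and Ctnnb1, and the markers Cldn3 and Spint1, were added after their values were seen. Log2 fold changes, percentages and CPM were computed here from those counts. Some genes that this rule names are not reported here. The members and lists were chosen with earlier results of these data known.

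Alternatives were DESeq2 1.42.0, limma-voom (limma 3.58.1), RLE factors, library size only, a replicate block, no filter, a minimum of 5 CPM in 3 libraries, separate fits for each pair of lines, and leaving out each library in turn. Replicates differed by more than sampling noise. Start-region sequences are from RefSeq (GRCm38.p6).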

Additional observations from a re-analysis of the deposited data

How the results depend on the processing

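For the 4 members in 6 comparisons, 474 alternative values were computed; 469 kept both the direction and the side of the threshold, and none (0) reversed. The 5 exceptions came from leaving out 1 library: 2 lost the Pkp3 call in deficient against vector, whose log2 fold change ran from 0.33 to 0.53 over the 12 libraries left out, and 3 gained the Evpl call in mimetic against vector, which ran from -0.34 to -0.22. With the filter of at least 5 CPM in 3 libraries Pkp3 was not tested. Of 18 pairs of same-numbered libraries, 1 had a correlation of deviations above 0.1, and 4 of 12 libraries correlated best with their own number. With the replicate block the log2 fold change of Dsp in WT against vector was -4.80, no member's call changed, and 7852 genes were called there in place of 7769. Counts of all called genes stayed within 1.5 times under every alternative run. Low counts limit Pkp3 (42 to 184 per library), for which the interval of mimetic against WT reached 0.82 on the log2 scale.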

Other observations

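Cornified envelope genes, the setting in which envoplakin is best known, were mostly not analysed here: 3 of 10 listed had counts. Sprr1a, a precursor of the envelope, fell from 27.5 ± 1.4 CPM in vector to 1.74 ± 0.091 in WT, 20.7 ± 0.92 in deficient and 8.46 ± 0.56 in mimetic. The crosslinking enzyme Tgm2 rose from 16.4 ± 1.4 CPM to 19.4 ± 0.94, 44.2 ± 0.98 and 56.2 ± 1.5 in the same lines. Tgm1, the transglutaminase of keratinocytes, stood at 0.134 ± 0.036 CPM in vector and rose to 1.62 ± 0.61 in deficient and 0.69 ± 0.22 in mimetic.

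Of 7 tested transcription factors of epithelial cells, 3 fell and 2 rose in WT against vector, 2 fell and 4 rose in deficient, and 2 fell and 3 rose in mimetic. Elf3, an ETS factor of epithelia, fell 7.92-fold in WT, 1.63-fold in deficient and 2.96-fold in mimetic. Klf5 fell 1.7-fold in WT and rose 1.21-fold in deficient, where Dsp, Pkp3 and Evpl also rose. Of 9 tested genes of desmosome assembly and transport, 6 fell and none (0) rose in WT, 5 fell and none (0) rose in deficient, and 5 fell and 1 rose in mimetic; the kinase Prkca fell by 0.31, 0.45 and 0.42 on the log2 scale in WT, deficient and mimetic, and the calcium pump Atp2a2 fell by 0.19 in WT, was not called in deficient (-0.01) and was the gene that rose in mimetic (0.09, adjusted p = 0.0447).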
